A study of Mus musculus with 4 samples.

Results

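The genes described here encode cyclins and cyclin-dependent kinases (CDKs), and were taken by their names: all genes of the count table named Ccn followed by a letter and a number, Ccnc, Ccnf, Ccnh, Ccnk, Ccny, or Cdk followed by a number. They were 36 of the 12486 genes in the table, 19 cyclins and 17 kinases. Nascent transcription of these genes was measured by precision run-on sequencing (PRO-seq), in which RNA polymerases engaged on DNA extend their transcripts by labelled nucleotides in isolated nuclei, so that a read marks a polymerase at work rather than stored mRNA. The cells were diploid mouse embryonic stem cells (mESCs) of a line that was haploid in origin, grown without feeders in serum with leukaemia inhibitory factor. All cells carried AID-Zfp574, the zinc-finger protein Zfp574 with an auxin-inducible degron at its N terminus, in an OsTir1 parental line, in which the plant ubiquitin ligase subunit that recognises the degron is expressed from an EF1a cassette. Control cells received no indole-3-acetic acid (IAA, an auxin) and were taken at 0 h, and depletion cells received 500 µM IAA for 6 h. Each condition had 2 libraries, labelled as biological replicates of the same tagged line, and none of the 4 came from cells lacking the degron, so that effects of auxin itself and of Zfp574 loss cannot be told apart.

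Most CDKs are inactive until they bind a cyclin. Cyclins are named for the periodic synthesis and destruction by which the first of them drive the cell cycle. D-type cyclins bind Cdk4 and Cdk6, E-type cyclins and cyclin A2 bind Cdk2, and B-type cyclins bind Cdk1 to drive mitosis. A second branch of the family acts on transcription: Cdk7 with cyclin H belongs to the general factor TFIIH, Cdk8 or Cdk19 with cyclin C to the Mediator kinase module, and Cdk9 with T-type cyclins and Cdk12 or Cdk13 with cyclin K phosphorylate the elongating polymerase. Mouse embryonic stem cells are known for a short G1 phase.

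Total counts were between 3298864 and 6045216 per library, both depletion libraries being deeper than both controls. Chi-square values between replicates, per degree of freedom, were 1.91 for the control pair and 1.51 for the depletion pair, so the libraries of a pair were more unlike than counting alone gives. Levels are given as CPM, counts scaled to a common library size adjusted by the trimmed mean of M-values (TMM). Of 10 embryonic stem cell marker genes, 7 were in the table, with a summed level of 4093 to 4239 CPM in the 4 libraries and 0 genes past the threshold. The endoderm and fibroblast markers in the table summed to at most 2.31 and 2.18 CPM, the mesoderm marker to 6.91 to 9.61 CPM and the trophoblast marker to 24.3 to 29.2 CPM. The 4 neural ectoderm genes summed to 54.4 and 61.1 CPM in the controls and to 68.2 and 69.6 CPM after depletion, both depletion libraries above both controls, with 0 genes past the threshold, and their part in the results below was not tested. Transcription of Zfp574, whose protein is the target of the degron, had a log2 fold change of 0.25 (SE 0.14, adjusted p = 0.406), and these counts do not report on the protein. Rpl10, a ribosomal protein gene that the study singled out, fell by 1.30 on the log2 scale (adjusted p = 1.19e-13). Adjusted p-values here and below are from the quasi-likelihood test of edgeR, adjusted by Benjamini-Hochberg over all 11853 genes tested.

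No cyclin or CDK gene was called at a change of 2-fold or more, and small changes past the threshold were found at 3 of them. All 36 genes passed the filter on low counts. At an adjusted p under 0.05, Cdk8 and Cdk19, the alternative kinases of the Mediator kinase module, rose by log2 fold changes of 0.25 and 0.27. Ccnd1, the main D-type cyclin in these libraries, fell by 0.24 on the log2 scale. None of these 3 calls held in DESeq2, and further alternatives in which they were lost are given below. In bulk nuclei, fewer cells in a phase of the cycle and less transcription per cell cannot be told apart. The other 33 genes did not pass, and the smallest adjusted p among them was 0.153, that of Cdk13.

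With a 2-fold minimum and an adjusted p under 0.05, 0 of the 36 genes were lower, against 0.321% of all genes tested, and 0 were higher, against 0% of all genes tested. Without the fold threshold, 1 of 36 was lower against 1.40% of all genes, and 2 of 36 were higher against 1.11%. At an unadjusted p under 0.05, 7 of 36 were lower against 7.66% of all genes (Ccna2, Ccnd1, Ccng1, Ccnl2, Cdk1, Cdk4 and Cdk11b), and 4 of 36 were higher against 8.53% (Cdk8, Cdk13, Cdk17 and Cdk19). Both depletion libraries lay below both controls in 10 genes, against 22.9% of all genes, and above them in 11 genes, against 23.4% of all genes. The remaining 15 genes had overlapping libraries.

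The log2 fold change was below 0 in 23 of 36 genes, against 50.6% of all genes, and its median was -0.04 against -0.002 over all genes tested. That median was near 0 without control replicate 1 (-0.0004) or control replicate 2 (-0.01), and -0.07 without depletion replicate 2. The 95% interval of the log2 fold change lay between -1 and 1 in 35 of the 36 genes and between -0.5 and 0.5 in 29. Ccnd2 was the exception at the wider limits, with an interval of -1.53 to 0.20, which does not exclude a 2-fold fall. Directions near 0 are relative to the scaling: with size factors that were recovered from the normalized signal of the authors (the recovered size factors below), the median over all genes moved to -0.11 and that of the 36 genes to -0.14, so that 30 of them lay below 0.

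**Figure D1:**
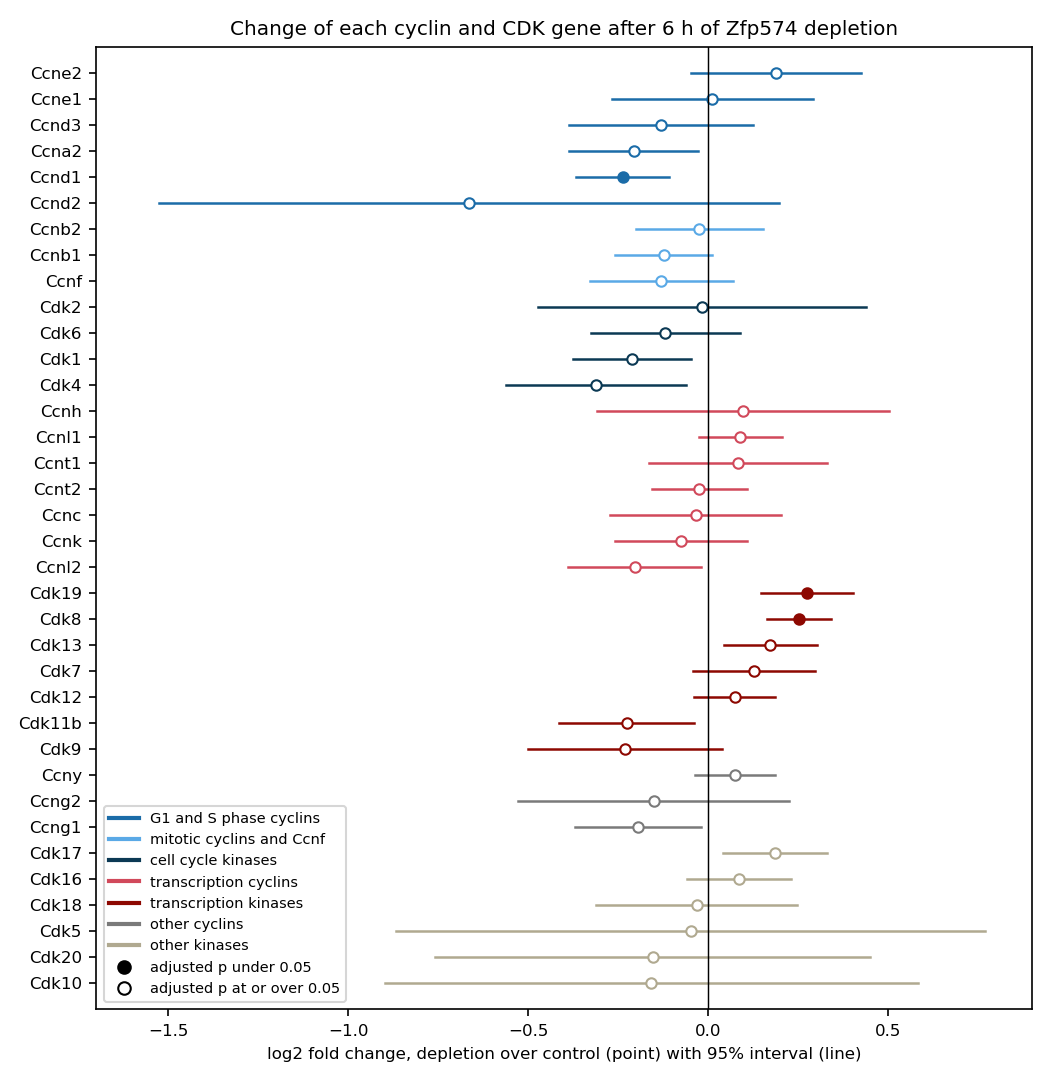
Log2 fold change of each of the 36 genes (x axis, points, depletion over control, 2 libraries each) with its 95% interval (lines), grouped and coloured by role. Filled points mark the 3 genes with an adjusted p under 0.05, and intervals are widest for Ccnd2 and for Cdk5, Cdk10 and Cdk20, which had few counts.

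Levels of different genes were compared per kilobase of annotated gene span. The authors counted reads over a transcript with a corrected start, which may be shorter than this span. Levels per kb and their ratios between genes are therefore approximate. In the controls the median over the 36 genes was 2.77 CPM per kb, with 28 genes above 1 CPM per kb and 6 above 10 CPM per kb. Cdk8 stood apart at 160 ± 15.6 CPM per kb (SD, n = 2). Ccnl1 followed at 27.7 ± 1.78 CPM per kb, Ccnb1 at 25.0 ± 0.861, Ccnd1 at 18.6 ± 0.553, Ccng1 at 12.9 ± 1.12 and Ccna2 at 11.1 ± 0.663. The control libraries of these 6 genes did not overlap with one another. Cdk7, Ccne1 and Ccne2, at 2.78, 2.76 and 2.73 CPM per kb, overlapped and had no order beyond their spread. At the low end were Cdk6 at 0.356, Ccnh at 0.366, Ccnd3 at 0.383 CPM per kb, whose libraries overlapped, and below them Ccnd2 at 0.130 CPM per kb.

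**Figure D2:**
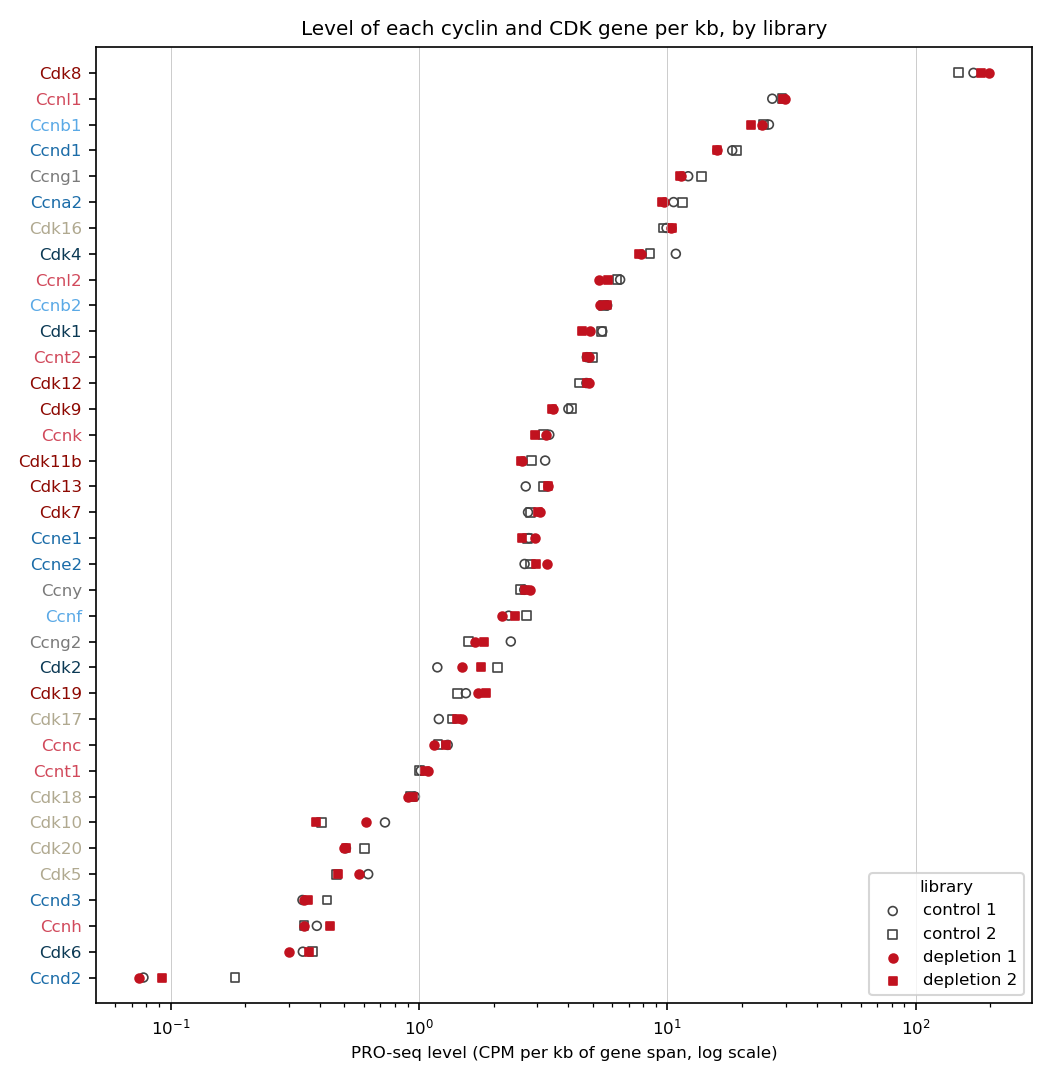
Level of each gene in each library (x axis, CPM per kb of gene span, log scale; open symbols control, filled symbols depletion), ordered by the control mean, with gene names coloured by role as in the plot of fold changes. Cdk8 lies between 149 and 198 CPM per kb in the 4 libraries, above every other member, and Ccnd2 is the lowest.

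Cdk8 (ENSMUSG00000029635, chromosome 5, 146231230 to 146302874, plus strand, mm10) had the highest count of all genes in the table. Its counts were 40727 and 39041 in control libraries and 84500 and 73512 in depletion libraries, or 1.23% and 1.08% of each control total and 1.40% and 1.30% of each depletion total. Its control level per kb was 5.77 times that of Ccnl1, the next member, and 108 times that of its close paralog Cdk19. Where within the gene these reads lie is not given by a count per gene, and the annotated processed pseudogene Gm15739 lies inside Cdk8 on the same strand, so the level of Cdk8 is uncertain as a measure of its transcription. The other 35 members together held between 0.345% and 0.353% of the counts of each library.

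Adjusted for library size, Cdk8 was at 12240 and 10655 CPM in the controls and at 14195 and 13083 CPM after depletion. Both depletion libraries lay above both controls, and the gap between the groups was smaller than the distance between the control libraries. The log2 fold change was 0.25 (SE 0.04, 95% interval 0.16 to 0.34, adjusted p = 0.000487, n = 2 per group, edgeR), or 1.19-fold. The call was lost with the recovered size factors (0.15, adjusted p = 0.0598), in DESeq2 (adjusted p = 1.00) and without depletion replicate 1 (0.20, adjusted p = 0.157).

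Cdk19 (ENSMUSG00000038481, chromosome 10, 40339564 to 40483818, plus strand, mm10), the paralog that can take the place of Cdk8 in Mediator, was at 223 and 206 CPM in the controls and at 250 and 268 CPM after depletion. Its groups did not overlap. The log2 fold change was 0.27 (SE 0.06, 95% interval 0.15 to 0.40, adjusted p = 0.0119, n = 2 per group, edgeR), or 1.21-fold. It did not pass with an offset for gene length (0.18, adjusted p = 0.186), with the recovered size factors (0.17, adjusted p = 0.136), in DESeq2 (adjusted p = 0.346), or without control replicate 2, depletion replicate 1 or depletion replicate 2 (adjusted p = 0.0634, 0.0693 and 0.312). Ccnc, the cyclin partner of both kinases, was at 42.1 and 38.5 CPM in the controls and at 37.1 and 41.5 CPM after depletion, with overlapping groups and a log2 fold change of -0.03 (95% interval -0.27 to 0.20, adjusted p = 0.929).

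Among the G1 and S phase cyclins, 1 of 6 fell (against 1.40% of all genes) and 0 rose (against 1.11%) past the threshold, and 4 had a log2 fold change below 0 (against 50.6%). Ccnd1 (ENSMUSG00000070348, chromosome 7, 144929931 to 144939925, minus strand, mm10) encodes cyclin D1, which carries growth factor signals into the cell cycle. It was at 182 and 190 CPM in the controls and at 158 and 158 CPM after depletion, so that the groups did not overlap. The log2 fold change was -0.24 (SE 0.06, 95% interval -0.37 to -0.11, adjusted p = 0.0380, n = 2 per group, edgeR), a level 0.848 times that of the controls. The call was lost with the offset for gene length (-0.19, adjusted p = 0.133), in DESeq2 (adjusted p = 0.940), and without control replicate 2, depletion replicate 1 or depletion replicate 2 (adjusted p = 0.148, 0.269 and 0.299).

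The other D-type cyclins were lower. Per kb of annotated span, the control level of Ccnd1 was 48.6 times that of Ccnd3 and 144 times that of Ccnd2. RefSeq promoter windows of Ccnd3 begin at chr17:47504801 and, near the other end of the gene, at chr17:47593217. The stretch counted for Ccnd3 is not known here, so the ratio to Ccnd3 is uncertain. Ccnd3 was at 32.2 and 40.4 CPM in the controls and at 32.8 and 33.8 CPM after depletion, with overlapping groups and a log2 fold change of -0.13 (adjusted p = 0.665). Ccnd2 had the largest fold change of the family on the log2 scale, -0.66 (SE 0.42, adjusted p = 0.464), and rested on few counts, 7 and 18 in control libraries and 12 and 14 in depletion libraries. One control library lay within the range of the depletion libraries, and leaving out control replicate 2 gave 0.09, whereas leaving out control replicate 1 gave -1.12.

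The kinases of the D-type cyclins, Cdk4 and Cdk6, start the phosphorylation of the retinoblastoma protein. Cdk4 was at 47.5 and 37.4 CPM in the controls and at 34.3 and 33.8 CPM after depletion. The libraries did not overlap, but the controls differed from each other by more than the nearer one differed from the depletion libraries, and the log2 fold change of -0.31 did not pass (SE 0.12, adjusted p = 0.191). It passed with the recovered size factors (-0.41, adjusted p = 0.0290) and without control replicate 2 (-0.48, adjusted p = 0.0303). Cdk6 overlapped between groups, at 64.6 and 70.4 CPM in the controls and at 56.6 and 68.2 CPM after depletion (log2 fold change -0.12, adjusted p = 0.618). Per kb, Cdk4 was 27.2 times as high as Cdk6 in the controls.

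The E-type cyclins and cyclin A2, which drive entry into and passage through S phase with Cdk2, moved in different directions, none of them past the threshold. Ccne2 was at 35.8 and 37.7 CPM in the controls and at 43.8 and 39.9 CPM after depletion, with no overlap and a log2 fold change of 0.19 (SE 0.12, adjusted p = 0.445). Ccne1 was at 26.4 and 26.2 CPM against 28.1 and 24.9 CPM, overlapping between groups (log2 fold change 0.01, 95% interval -0.27 to 0.29, adjusted p = 0.982). Their control levels per kb were alike, at a ratio of 0.992. Ccna2 was at 77.2 and 84.1 CPM in the controls and at 70.9 and 69.1 CPM after depletion, with no overlap (log2 fold change -0.21, SE 0.09, adjusted p = 0.228). Ccna2 passed with the recovered size factors (-0.31, adjusted p = 0.0334). Cdk2 was at 8.41 and 14.7 CPM in the controls and at 10.6 and 12.6 CPM after depletion, so that both depletion libraries lay between the controls (log2 fold change -0.02, adjusted p = 0.983).

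**Figure D3:**
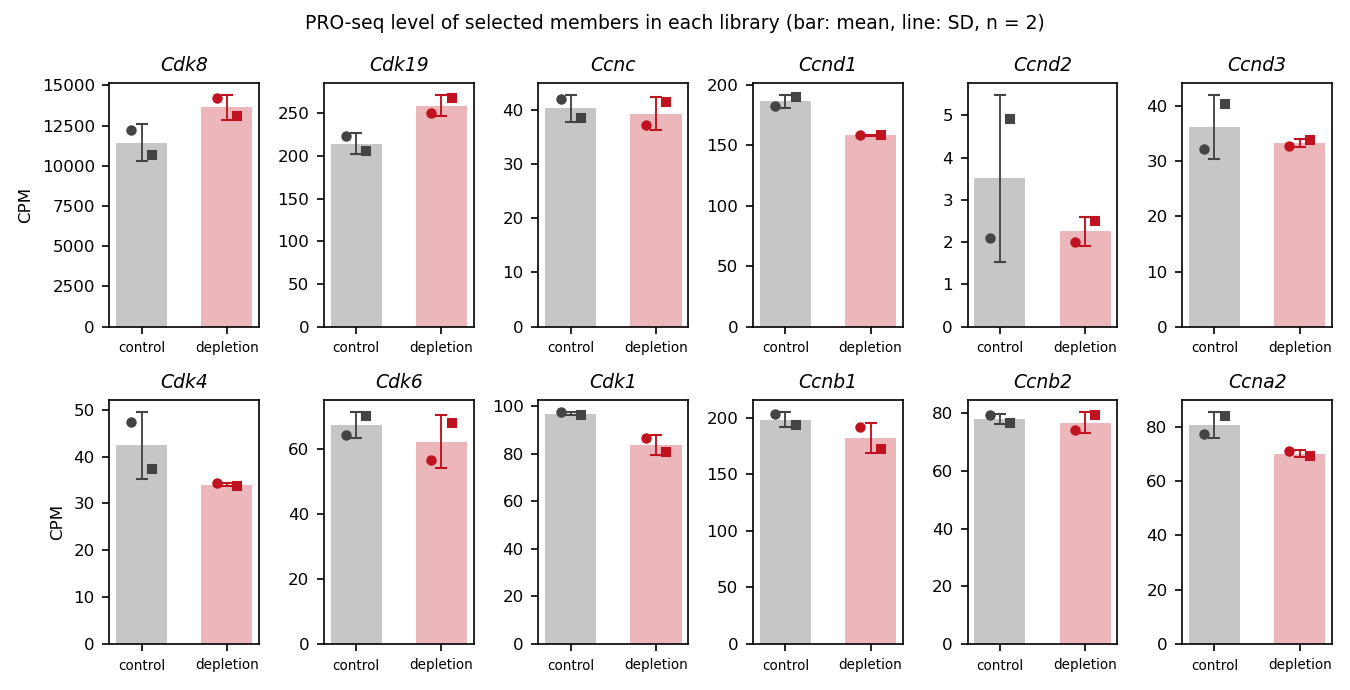
Level of 12 members in each library (y axis, CPM from 0, scaled to each panel; circles replicate 1, squares replicate 2), with the mean (bar) and SD (line, n = 2) of control and depletion. Depletion libraries lie above both controls for Cdk8 and Cdk19 and below both for Ccnd1, Cdk4, Cdk1, Ccnb1 and Ccna2, and the groups overlap for Ccnc, Ccnd2, Ccnd3, Cdk6 and Ccnb2.

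None of the mitotic genes passed the threshold in the test with TMM scaling. Cdk1, the kinase that starts mitosis, was at 97.4 and 96.3 CPM in the controls and at 86.5 and 80.6 CPM after depletion. Its groups did not overlap, and the log2 fold change was -0.21 (SE 0.08, 95% interval -0.38 to -0.05, adjusted p = 0.172). With the recovered size factors Cdk1 passed (-0.31, adjusted p = 0.0174). Its partner Ccnb1 was at 203 and 194 CPM in the controls and at 191 and 172 CPM after depletion, without overlap (log2 fold change -0.12, adjusted p = 0.368; -0.23 with adjusted p = 0.0464 under the recovered size factors). Ccnb2, the other B-type cyclin, was at 79.3 and 76.7 CPM against 74.1 and 79.4 CPM, with overlap (log2 fold change -0.02, 95% interval -0.20 to 0.15, adjusted p = 0.936). Ccnf, which encodes the F-box protein cyclin F and binds no CDK, ranged from 63.2 to 79.1 CPM with overlapping groups (log2 fold change -0.13, adjusted p = 0.548).

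Promoters of late cell cycle genes are known for CCAAT boxes, bound by NF-Y, near a cell cycle genes homology region (CHR), bound by DREAM and MuvB complexes. The promoter windows of RefSeq (GRCm38.p6, the same coordinates as mm10), from 250 bases before to 50 bases after a start, held 27 of the 36 members and 32851 windows in all. Members with no entry were Ccna2, Ccnd1, Ccnd2, Ccne2, Ccnh, Ccny, Cdk5, Cdk17 and Cdk19. Both strands were searched for CCAAT, which reads ATTGG on the opposite strand. The CHR was searched as TTTGAA, which reads TTCAAA on the opposite strand. The E2F site was searched as TTTCCCGC, as TTTCGCGC, as TTTGCCGC and as TTTGGCGC, with the reverse complement of each. A member counted if any of its windows matched, whereas shares are over windows. Cdk1, Ccnb2 and Ccnf were the 3 members with 2 or more CCAAT boxes and 2 or more CHR matches in the window. Such counts were found in 0.256% of all windows. That cut was not among the planned results, enrichment was not tested, and the order and spacing of matches were not scored. CCAAT occurred in 15 of the 27 members and 37.4% of all windows, and the CHR letters in 4 of 27 and 17.9%. At least 1 of each was found in 4 of 27 (Cdk16 added) and in 6.95% of all windows. The GC box letters GGGCGG occurred in 23 of 27 and in 35.7%. An E2F match occurred in Cdk1 and Cdk2, 2 of 27, and in 2.26% of all windows. Ccnb1 had 2 CCAAT boxes and no match to the CHR letters. These 3 windows are shown with that of Cdk8, the member with the smallest adjusted p. The Cdk8 window held GC box letters and no CCAAT, CHR or E2F match. Capitals mark CCAAT, CHR and E2F matches, and GC boxes stay in lower case. Each run is given 5′ to 3′ on the strand of the gene, and each ends before the annotated gene begins. The minus strand holds Cdk1 (chr10:69352939-69353162), Ccnb2 (chr9:70421555-70421804) and Ccnf (chr17:24251485-24251659), and the plus strand holds Cdk8 (chr5:146231000-146231229).
Cdk1: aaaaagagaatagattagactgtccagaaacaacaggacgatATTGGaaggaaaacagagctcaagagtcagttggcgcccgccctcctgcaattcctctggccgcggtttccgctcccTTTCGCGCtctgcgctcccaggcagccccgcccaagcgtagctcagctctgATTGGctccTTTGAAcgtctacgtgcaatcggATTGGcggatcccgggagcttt
Ccnb2: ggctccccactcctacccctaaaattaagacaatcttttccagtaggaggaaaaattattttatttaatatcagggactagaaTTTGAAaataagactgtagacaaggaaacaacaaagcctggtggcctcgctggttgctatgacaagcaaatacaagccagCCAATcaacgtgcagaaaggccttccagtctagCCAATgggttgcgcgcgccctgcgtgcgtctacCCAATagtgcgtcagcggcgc
Ccnf: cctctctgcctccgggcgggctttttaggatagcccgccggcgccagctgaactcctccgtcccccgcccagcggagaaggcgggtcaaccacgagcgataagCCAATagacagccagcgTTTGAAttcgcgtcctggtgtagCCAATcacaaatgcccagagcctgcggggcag
Cdk8: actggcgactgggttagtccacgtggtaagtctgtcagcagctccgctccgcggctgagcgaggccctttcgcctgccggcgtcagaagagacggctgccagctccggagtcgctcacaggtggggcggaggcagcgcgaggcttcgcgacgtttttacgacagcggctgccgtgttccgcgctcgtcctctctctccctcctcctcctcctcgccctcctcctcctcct

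Counted from the start in the RefSeq window, the CCAAT boxes of Cdk1 began at -208, -80 and -48, its CHR matches at -71 and -15 and its E2F match at -131. Those of Ccnb2 began at -87, -54 and -21, with CHR matches at -167 and 5, and those of Ccnf at -147 and -107, with CHR matches at -130 and -14. The CHR matches at -15, 5 and -14 lie beyond the ends of the runs shown. The 3 genes with these counts of matches had log2 fold changes of -0.21, -0.02 and -0.13, and none passed the threshold.

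The cyclins and kinases of transcription had 14 members, of which 2 rose (against 1.11% of all genes), 0 fell (against 1.40%), and 12 did not pass. The kinases had a median log2 fold change of 0.13, with 5 of 7 above 0, and their cyclins one of -0.02, with 3 of 7 above 0. These medians follow the scaling: with the recovered size factors they were 0.03, with 4 of 7 above 0, and -0.13, with 0 of 7 above 0, and with the offset for gene length added -0.01 and -0.13. That of the cyclins was 0.03 without control replicate 1, 0.01 without control replicate 2, 0.05 without depletion replicate 1 and -0.01 without depletion replicate 2. For comparison, the median was -0.13 in the 13 cyclins and kinases of the cell cycle (the G1 and S phase cyclins, the mitotic cyclins with Ccnf, and the cell cycle kinases), with 11 of them below 0, and it was -0.23 with the recovered size factors, -0.26 with the offset added, -0.05 without control replicate 2 and -0.20 without control replicate 1. The difference between these groups of genes was not tested, and the groups also differed in length, with a median span of 71.6 kb for the transcription kinases, 32.2 kb for the transcription cyclins and 13.4 kb for the cell cycle members.

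In TFIIH, Cdk7 was at 77.8 and 79.4 CPM in the controls and at 86.9 and 85.1 CPM after depletion, with no overlap (log2 fold change 0.13, SE 0.08, adjusted p = 0.475). Its cyclin Ccnh was lower, at 13.2 and 11.7 CPM in the controls and at 11.8 and 14.9 CPM after depletion, with one depletion library between the controls (log2 fold change 0.10, adjusted p = 0.866). Neither gene of the pair passed.

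In the positive elongation factor P-TEFb, which releases paused polymerase, Cdk9 was at 29.2 and 30.0 CPM in the controls and at 25.4 and 25.1 CPM after depletion. The groups did not overlap, yet the log2 fold change of -0.23 (SE 0.13, 95% interval -0.50 to 0.04) did not pass (adjusted p = 0.408). Ccnt1 was at 32.8 and 32.5 CPM against 35.1 and 34.0 CPM, without overlap (log2 fold change 0.08, adjusted p = 0.798). Ccnt2 was at 161 and 169 CPM against 164 and 161 CPM, with overlap (log2 fold change -0.02, 95% interval -0.16 to 0.11, adjusted p = 0.906). Ccnt2 was 4.81 times as high as Ccnt1 per kb in the controls.

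Cdk12 and Cdk13, kinases of the elongating polymerase with roles at long genes and DNA repair genes, both lay above their controls in both depletion libraries. Cdk12 was at 356 and 333 CPM in the controls and at 366 and 359 CPM after depletion (log2 fold change 0.07, adjusted p = 0.545). Cdk13 was at 255 and 300 CPM in the controls and at 314 and 313 CPM after depletion (log2 fold change 0.17, SE 0.06, adjusted p = 0.153), and passed without control replicate 2 (0.30, adjusted p = 0.00152). Their shared cyclin Ccnk overlapped between groups, at 79.6 and 75.6 CPM against 77.4 and 69.6 CPM (log2 fold change -0.08, adjusted p = 0.740).

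Cdk11b, a kinase of splicing and of transcription, was at 80.8 and 71.5 CPM in the controls and at 65.2 and 64.8 CPM after depletion, without overlap (log2 fold change -0.23, SE 0.09, adjusted p = 0.207; -0.33 with adjusted p = 0.0255 under the recovered size factors). Its L-type cyclins lay on opposite sides of 0. Ccnl1 was at 320 and 350 CPM in the controls and at 360 and 354 CPM after depletion (log2 fold change 0.09, adjusted p = 0.461), just clear of overlap. Ccnl2 was at 77.8 and 75.6 CPM in the controls and at 63.8 and 69.4 CPM after depletion, also without overlap (log2 fold change -0.20, SE 0.09, adjusted p = 0.247; -0.31 with adjusted p = 0.0393 under the recovered size factors).

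None of the 9 other members passed. Among the atypical cyclins, Ccng1, a target of p53, was at 82.0 and 92.8 CPM in the controls and at 76.9 and 76.0 CPM after depletion, without overlap (log2 fold change -0.20, adjusted p = 0.242; -0.30 with adjusted p = 0.0355 under the recovered size factors). Ccng2 and Ccny had log2 fold changes of -0.15 and 0.08. The kinases Cdk5, Cdk10, Cdk16, Cdk17, Cdk18 and Cdk20 ranged from -0.16 in Cdk10 to 0.19 in Cdk17, which was at 128 and 144 CPM in the controls and at 159 and 151 CPM after depletion (adjusted p = 0.173). Cdk17 lay above its controls in both libraries and passed without control replicate 2 (0.28, adjusted p = 0.0430). Cdk5, Cdk10 and Cdk20 had at most 28 counts in a library, and at that depth their intervals reached from -0.90 to 0.77 on the log2 scale.

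Log2 fold changes of the members were also set against the length of the gene, as a description. Over the 36 genes, Spearman's rho between log2 fold change and gene span was 0.53, and over the 11844 genes tested that had a position it was 0.27. Over the members rho was 0.30 without control replicate 1 and 0.36 without depletion replicate 2. It was 0.54 without control replicate 2 and 0.59 without depletion replicate 1. These points share the same 4 libraries, and genes are not independent replicates. Of the 8 members over 50 kb, 6 lay above 0 (Cdk8, Cdk12, Cdk13, Cdk17, Cdk19 and Ccny), and of the 28 shorter members, 21 lay below 0. The medians over deciles of span of all genes ran from -0.06 in the shortest to 0.10 in the longest. With an offset that takes the trend out of each library, rho over the members was 0.28. Cdk8 kept its call there (0.19, adjusted p = 0.0110), while Cdk19 and Ccnd1 did not. The part of gene length in the other differences was not tested. Cdk6, with the longest annotated span at 190 kb, and Ccnd3 at 94.6 kb lay below 0. Leaving out 1 library gave ranges across 0 for both (-0.26 to 0.014 for Cdk6 and -0.28 to 0.049 for Ccnd3).

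**Figure D4:**
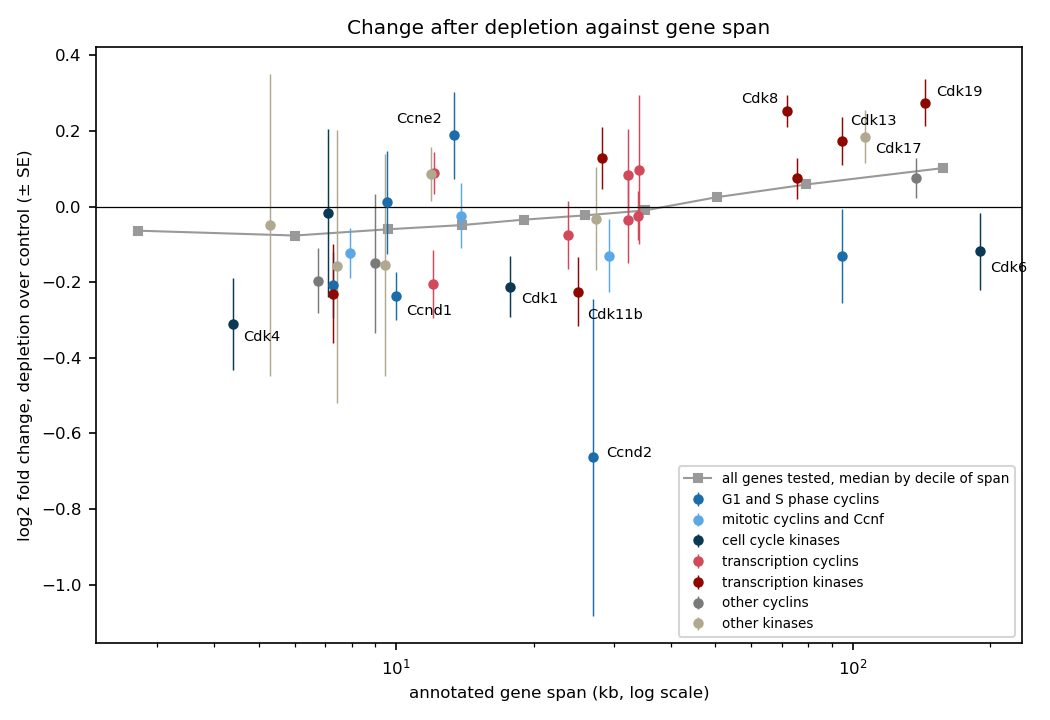
Log2 fold change of each member (y axis, ± SE) against annotated gene span (x axis, kb, log scale), coloured by role, with the median over deciles of span for all genes tested (grey squares). Members over 50 kb lie mostly above 0 and shorter members mostly below, as the grey medians do, and Cdk6 and Ccnd3 lie below 0 among the long genes.

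Other regulators of the same machinery were read from a list of CDK inhibitors, kinases and phosphatases of CDKs, partners and assembly factors, the Rb and E2F families, ubiquitin ligases of the cycle, and further cyclin box genes. Of 81 such genes in the table, 79 were tested, 1 was lower and 1 was higher past the threshold, and their median log2 fold change was -0.01. The background over all genes is that given above for calls at any fold. Med13, the subunit that ties the kinase module of Cdk8 and Cdk19 to Mediator, was at 441 and 359 CPM in the controls and at 570 and 495 CPM after depletion. Its groups did not overlap, and it rose by a log2 fold change of 0.41 (SE 0.07, adjusted p = 0.000406, edgeR). Its call was lost in DESeq2 and without depletion replicate 1. The other module genes on the list had log2 fold changes of 0.21 (Med12, adjusted p = 0.530) and 0.03 (Med13l, adjusted p = 0.834). Tfdp1, the dimer partner of E2F factors, was at 224 and 226 CPM in the controls and at 185 and 188 CPM after depletion, with no overlap, and fell by 0.27 on the log2 scale (SE 0.06, adjusted p = 0.00968, edgeR). Its call was lost in DESeq2 and without depletion replicate 1 or depletion replicate 2. Of the 7 CDK inhibitors tested, none passed (median -0.01), nor did any of the 7 kinases and phosphatases of CDKs (median -0.03) or the 20 ubiquitin ligase genes (median -0.02).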

How the data were processed

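Nascent RNA was measured by PRO-seq in 2 control and 2 depletion libraries, assigned by the treatment on their labels. The authors split a unique molecular identifier off each read, trimmed adapters with cutadapt 1.18, mapped reads with Bowtie 1.2.2 to mm10 (added Drosophila cells served as spike-in), kept uniquely placed reads, and collapsed identifiers. The deposited count per gene is a whole number of collapsed reads on the gene's strand, not normalized, over genes whose starts the authors had corrected with CAGE data. Near-identical copies lose reads under unique placement. A second deposited table holds the authors' DESeq2 comparison: mean normalized signal, log2 fold changes and p-values. Only the signal was used, to recover its size factors by regression on the counts (0.699 and 0.740 for controls, 1.32 and 1.24 for depletion). The methods describe scaling factors from reads on the Drosophila genome (dm3), one per condition and shared by its replicates, whereas the recovered factors differ between replicates, so whether they are those spike-in factors was not resolved. Spike-in counts were not used here.

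Genes were filtered with filterByExpr (minimum count 10, minimum total 15), which left 11853 and removed 633, scaled by TMM and tested two-sided in edgeR 4.0.16 (R 4.3.3, glmQLFit and glmQLFTest, condition as the only term). Standard errors are those the F statistic implies. Alternatives were DESeq2 1.42.0, limma-voom (limma 3.58.1), other scalings and filters, a replicate block, a loess offset for gene length, and leaving out each library. GENCODE M21 (mm10) gave positions for 12474 genes. Another annotated gene lay on the same strand within 8 members and on the opposite strand within 20, and the counts are stranded. The scripts were tested on simulated data. Intervals derive from 2 libraries per group. The members and gene lists were chosen with earlier results of these data known. Values per library are given for members past the threshold, the 3 largest rises and falls, and each cyclin with its main kinase, with a few others chosen after their values were seen; the remaining members are given as ranges and counts.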

Additional observations from a re-analysis of the deposited data

How the results depend on the processing

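Counts of members changed by at least 2-fold stayed at 0 in both directions under every alternative run. At any fold, 1 member was lower and 2 were higher. The lower and higher counts were 8 and 0 with the recovered size factors, 0 and 0 in DESeq2, and 0 and 1 with the offset for gene length. Over all genes tested, the lower and higher calls were 698 and 49 with the recovered size factors, 60 and 14 in DESeq2 and 143 and 57 with the offset, against 166 and 132. The recovered size factors together with that offset, an alternative chosen after seeing the data, gave 4 members lower and 0 higher. The 4 were Ccnd1, Cdk1, Cdk6 and Cdk11b, against 836 lower and 43 higher over all genes tested. The cause was not tested. In fits that each left out 1 library, 1 sample stood for a group and was assumed to vary like the other group. The calls of Cdk8, Cdk19 and Ccnd1 were each lost in at least 1 of these fits. Cdk4, Cdk13 and Cdk17 passed only in the fit without control replicate 2 among them, as given above. The median log2 fold change of the members was -0.075 with library totals, -0.14 with the recovered size factors with or without the offset, and from -0.070 to -0.00040 when 1 library was left out. Of the other regulators, 9 were lower with the recovered size factors and 10 with the offset added. In DESeq2, 0 were lower and 0 higher. The calls of Med13 and Tfdp1 were each lost in at least 1 fit without a library, as given above.

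Deviations of same-numbered libraries from their group means had a correlation of 0.038 over all genes tested. Counting noise in genes with few counts lowers such a value, so it does not decide whether replicate numbers pair the libraries. With the replicate block, 1 member was lower and 3 were higher (Cdk13 added), 5 other regulators were lower and 2 higher, and calls over all genes tested rose to 300 lower and 366 higher.

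Log2 fold changes that changed sign were those of Ccne1 with library totals (-0.023), a mean count of at least 100 (-0.0033), the recovered size factors (-0.092) and these with the offset (-0.049), Cdk2 in limma-voom (0.023), with the offset (0.033) and with the replicate block (0.0014), and, with the offset, Ccnb2 (0.011), Ccny (-0.021) and Cdk5 (0.0038). With the recovered size factors they were Ccnh (-0.0060), Ccnl1 (-0.014), Ccnt1 (-0.020), Ccny (-0.028), Cdk12 (-0.028) and Cdk16 (-0.018), and with the offset added Ccnh (-0.013), Ccnt1 (-0.023), Ccny (-0.12), Cdk12 (-0.090), Cdk13 (-0.0078) and Cdk17 (-0.0010). Leaving out 1 library gave ranges across 0 for Ccnb2 (-0.073 to 0.028), Ccnc (-0.11 to 0.047), Ccnd2 (-1.12 to 0.094), Ccnd3 (-0.28 to 0.049), Ccne1 (-0.076 to 0.093), Ccng2 (-0.42 to 0.15), Ccnh (-0.081 to 0.27), Ccnt2 (-0.058 to 0.014), Cdk2 (-0.35 to 0.46), Cdk5 (-0.26 to 0.17), Cdk6 (-0.26 to 0.014), Cdk10 (-0.54 to 0.31) and Cdk18 (-0.068 to 0.0076). None of these values passed the threshold.

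With 2 libraries per group and few counts, changes in Ccnd2, Cdk5, Cdk10 and Cdk20 within their intervals were not detectable at this depth.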
